A study of Rattus norvegicus with 3 samples.

Results

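Heat shock chaperones were followed through single cells of the injured rat spinal cord. The 10 genes were matched by symbol among 25199 features: Hspa1b, Hspa8, Hsp90aa1, Hsp90ab1, Hsph1, Dnajb1, Hspb1, Hspa5, Hspd1 and Hspe1. Each symbol matched 1 feature, and all 10 had UMIs (unique molecular identifiers, 1 per captured transcript) in the kept cells, from 5641 for Dnajb1 to 138433 for Hsp90ab1. They were chosen because Hspa1b had already been seen to be lower in these libraries, so its levels below are a description, and the question is whether it moved alone or with the other 9.

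All 3 groups were wild-type rats of 6 to 8 weeks with an injured cord, and they received PBS, G-HD or MPG-HD by injection where the injury lay. The labels give no strain, sex or time after injury, and do not say what the letters of G-HD and MPG-HD stand for. For each condition 5 animals were used, a 5 mm length of cord was digested with collagenase at 37 °C and then trypsin, and 1 library was made with a 10x Genomics 3′ kit, with no statement on how animals were pooled. With 1 library per group there is no replicate, no test was possible, and every interval below covers counting error only, not differences between animals or preparations.

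Chaperones bind unfolded proteins and help them fold. HSP70 proteins (Hspa genes) work with HSP40 partners (Dnaj genes), which deliver substrates and stimulate ATP hydrolysis, and with nucleotide exchange factors such as HSP110 (Hsph1), and they hand some clients on to HSP90. In stressed cells heat shock factor 1 binds heat shock elements, inverted repeats of the unit nGAAn, and drives the inducible members, whereas stress in the endoplasmic reticulum acts through other elements on Hspa5. Tissue digestion at body temperature is itself known to induce heat shock and immediate early genes in freshly isolated cells.

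Promoters from RefSeq (build GRCr8) were found for 8 of the 10 genes; Hspa1b and Hsp90aa1 were not among them. They are shown because they separate the members by the stress elements written in the 250 bases before the start site. The capitals mark matches to GAANNTTC, TTCNNGAA or the longer form of 3 units GAANNTTCNNGAA, which contains both shorter forms and was searched, like them, on both strands. In Hspa5 they mark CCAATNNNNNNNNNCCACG, the endoplasmic reticulum stress element. The windows are chr8:50080264-50080513 (+ strand) for Hspa8, chr12:10427118-10427367 (+) for Hsph1, chr19:41431142-41431391 (- strand) for Dnajb1 and chr3:38452766-38453015 (+) for Hspa5.
Hspa8: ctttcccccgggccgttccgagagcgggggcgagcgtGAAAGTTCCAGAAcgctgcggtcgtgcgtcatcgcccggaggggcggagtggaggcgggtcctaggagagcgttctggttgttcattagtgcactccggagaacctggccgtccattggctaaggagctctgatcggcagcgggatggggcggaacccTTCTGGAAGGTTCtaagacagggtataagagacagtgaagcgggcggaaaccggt
Hsph1: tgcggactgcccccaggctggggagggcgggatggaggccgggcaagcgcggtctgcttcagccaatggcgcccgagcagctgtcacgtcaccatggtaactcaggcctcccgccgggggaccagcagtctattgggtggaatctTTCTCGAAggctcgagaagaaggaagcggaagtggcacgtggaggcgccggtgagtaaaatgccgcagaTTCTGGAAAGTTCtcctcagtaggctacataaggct
Dnajb1: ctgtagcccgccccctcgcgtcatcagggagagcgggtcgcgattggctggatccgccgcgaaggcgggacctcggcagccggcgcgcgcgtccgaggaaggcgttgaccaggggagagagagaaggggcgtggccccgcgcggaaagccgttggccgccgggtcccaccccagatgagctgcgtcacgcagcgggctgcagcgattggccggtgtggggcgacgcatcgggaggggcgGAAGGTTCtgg
Hspa5: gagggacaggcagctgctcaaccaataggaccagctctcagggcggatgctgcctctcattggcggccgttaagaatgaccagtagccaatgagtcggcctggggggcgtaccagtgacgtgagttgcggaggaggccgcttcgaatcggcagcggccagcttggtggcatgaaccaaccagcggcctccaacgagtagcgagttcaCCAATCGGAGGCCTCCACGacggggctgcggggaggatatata
The form of 3 units occurred 2 times in Hspa8, with its first base 213 and 55 bases before the start, and once in Hsph1, at 36 bases. It was in 222 of 33469 RefSeq promoters (0.663%). Dnajb1 held a single match of 2 units, 11 bases before its start, and Hspb1 held 2; either form of 2 units was in 13.5% of promoters. Neither form was in the window of Hsp90ab1 or Hspa5, and the Hspa5 element, 43 bases before the start, was in 22 promoters (0.0657%). The Hsp90ab1 window (chr9:22930173-22930422) runs past the start of its RefSeq gene span at 22930249, and bases further upstream were not searched.
Hspd1 and Hspe1 are transcribed away from each other, with starts 290 bases apart in the promoter set. The RefSeq gene span of Hspd1 reaches further, to 64084332, past the Hspe1 start at 64084327, so the element below lies inside that span. Their upstream windows share 211 bases, and both hold the same element, printed here on the Hspe1 strand (chr9:64084257-64084284).
Hspe1: ctcggTTCTAGAACCTTCCGGAAggccc
The 18 capitals contain 2 overlapping matches to the form of 3 units. A match is a run of letters and not evidence of binding.

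The PBS library kept 1374 cells after filtering, that of G-HD 2342 and that of MPG-HD 2087, with median depths of 10294, 9247.5 and 10425 UMIs. Between 5 and 8 barcodes were shared by any 2 libraries. Clusters were named from marker genes after the chaperone and immediate early genes had been left out of the clustering, and no other evidence of identity was used. In all, 6 classes had at least 50 cells in each library: macrophage-like (263 cells in PBS, 577 in G-HD, 342 in MPG-HD), microglia-like (287, 301 and 416, in the same order), oligodendrocyte-like (244, 180 and 419), fibroblast-like (136, 236 and 168), Schwann-like (100, 216 and 215) and T-like (52, 106 and 54). Neutrophil-like, oligodendrocyte precursor-like and endothelial-like cells had at least 20 in each. Levels are UMIs summed over a class and scaled to the UMI total of that class, as counts per 1e6 UMIs (CPM). Below, "called" means that the 2 sums together held at least 50 UMIs, that their ratio was at least 1.5 or at most 1/1.5, and that its 95% interval excluded 1; "lower" and "higher" as counts refer to such calls.

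Hspa1b, the main stress-inducible HSP70, differed widely between cell types and between libraries. In the PBS library it stood at 964 CPM in endothelial-like, 761 in fibroblast-like, 479 in Schwann-like, 133 in oligodendrocyte-like, 108 in microglia-like, 59.8 in macrophage-like and 49.4 in oligodendrocyte precursor-like cells. T-like cells had 4 UMIs (19.3 CPM, 5.27 to 49.5) and neutrophil-like cells none. Neighbours in this order had intervals that did not overlap, except that the interval of oligodendrocyte precursor-like cells reached those of macrophage-like and T-like cells, and that T-like and neutrophil-like cells overlapped. The rat features hold no row for Hspa1a, the near-identical neighbouring copy, so reads from either copy cannot be told apart and the level is uncertain in that sense.

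In the G-HD library the order changed. Fibroblast-like cells stayed near their PBS level, at 617 CPM (588 to 647) against 761 (722 to 802), while endothelial-like cells stood at 125 (93.4 to 164), Schwann-like at 155 (133 to 179) and oligodendrocyte-like at 58.9 (123 UMIs). Macrophage-like and microglia-like cells were at 8.39 (6.77 to 10.3) and 5.35 (3.22 to 8.36). Those last values lie beside the 5.11 CPM of T-like cells in the same library (2 UMIs) and the 7.43 CPM of neutrophil-like cells (4 UMIs), so UMIs of free RNA were not told apart from expression there. In MPG-HD the levels were 1369 CPM in endothelial-like, 668 in fibroblast-like, 414 in Schwann-like, 112 in oligodendrocyte-like, 31.5 in microglia-like and 28.5 in macrophage-like cells.

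**Figure D1:**
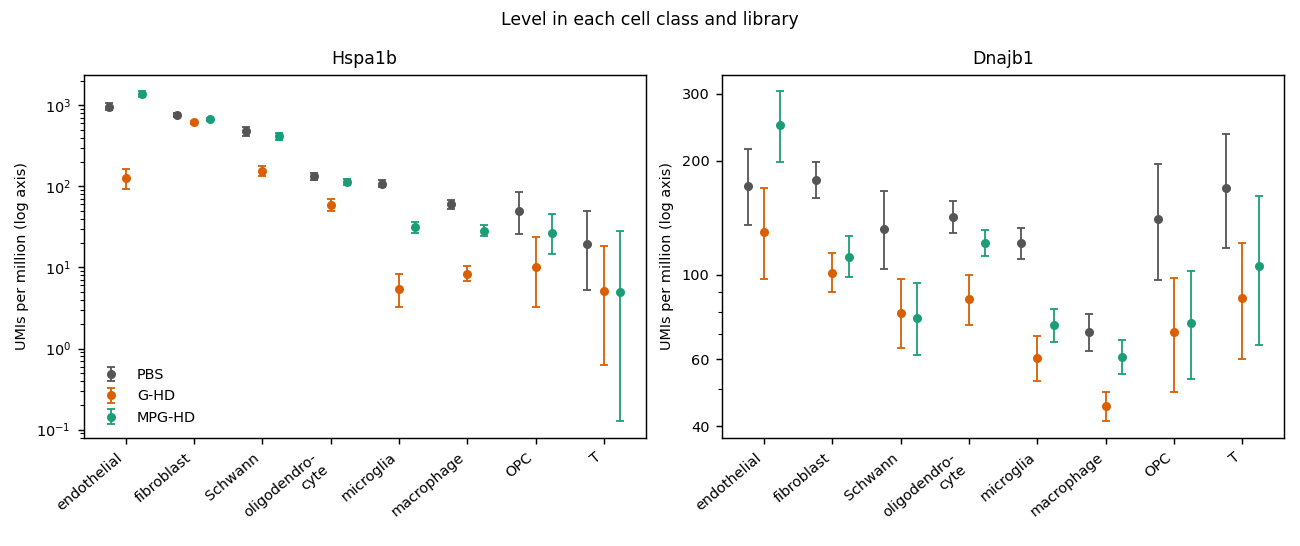
Hspa1b and Dnajb1 in 8 cell classes (OPC, oligodendrocyte precursor-like) of the 3 libraries, in CPM of the class on log axes; points are class sums and bars exact 95% Poisson intervals for counting error. The G-HD points of Hspa1b run from 617 in fibroblast-like to 5.35 in microglia-like and 5.11 in T-like cells, whereas those of Dnajb1 lie below PBS in every class shown, at 0.500 to 0.759 of it.

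As ratios to PBS, Hspa1b in G-HD was 0.0495 in microglia-like cells (0.0295 to 0.0785, 20.2-fold lower), 0.140 in macrophage-like (0.110 to 0.178), 0.324 in Schwann-like (0.267 to 0.393), 0.444 in oligodendrocyte-like (0.359 to 0.545) and 0.810 in fibroblast-like cells (0.754 to 0.869). It was lower in 4 of the 5 main classes with enough UMIs, where 4.14% of all pairs of gene and main class were lower; since the gene was chosen on this contrast, nothing is read from that share. Among the genes measured in microglia-like cells, its ratio was the lowest of 6431, and nothing is read from that rank for the same reason. In MPG-HD over PBS it was 0.291 in microglia-like (0.242 to 0.350) and 0.476 in macrophage-like cells (0.391 to 0.579) and was not called in the other 3 classes, at 0.847 to 0.878 (background 4.32%). MPG-HD stood above G-HD in 4 of 5 classes (background 2.06%), from 1.91-fold in oligodendrocyte-like to 5.88-fold in microglia-like cells, and was at 1.08 in fibroblast-like cells. These contrasts reuse the libraries in which Hspa1b had been seen to be lower, so nothing is read from their shares either.

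The fraction of cells with an Hspa1b UMI followed the same pattern. In microglia-like cells it was 44.3% in PBS (127 of 287 cells), 4.65% in G-HD (14 of 301) and 100 of 416 cells in MPG-HD, at median depths of 11497, 11661 and 12510 UMIs. In macrophage-like cells it was 36.9%, 10.6% and 28.1%. In fibroblast-like cells it was 91.2%, 91.9% and 89.9%, so nearly all of them carried the transcript in every library. T-like cells, at median depths of 3236 to 3447 UMIs, had a UMI in 5.77%, 1.89% and 1.85%. Thinned to 1000 UMIs per cell, the microglia-like shares were 7.32%, 1.00% and 2.64% and the fibroblast-like shares 41.7%, 40.7% and 40.7%; the G-HD value in microglia-like cells is then 3 of 299 cells, and no change is read from it.

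Within classes the clusters differed in Hspa1b. The microglia-like clusters had G-HD over PBS ratios of 0.0366 and, in the cluster led by interferon genes, 0.0684; the macrophage-like clusters had 0.157 (led by Mmp12) and 0.0663. The cluster led by interferon genes had no microglia marker among its leading genes. It held 54 of 287 microglia-like cells in PBS, 134 of 301 in G-HD and 110 of 416 in MPG-HD. The microglia-like class ratio thus also averages over a changed makeup. In fibroblast-like cells the ratios of the 3 clusters were 0.978, 0.766 and 0.619, and the last was past the call. The fibroblast-like cluster with the most cells was not the same in G-HD as in the other libraries, so the class ratio of 0.810 also averages over different cells. The oligodendrocyte-like clusters with at least 50 UMIs had 0.557 and 0.337. An unnamed cluster led by class II genes had 191 CPM in PBS, 7.09 in G-HD and 32.7 in MPG-HD. Of the 13 clusters with at least 50 Hspa1b UMIs in both libraries together, all 13 were below PBS in G-HD and 11 in MPG-HD, the other 2 being the endothelial-like cluster and 1 of the fibroblast-like clusters. Clusters of the same libraries are not replicates, and Hspa1b was chosen on these values, so nothing is read from these counts. In microglia-like cells of PBS, G-HD and MPG-HD, microglia markers summed to 392, 388 and 360 CPM. Macrophage markers summed to 8585, 10235 and 8403 CPM there, and to 36844, 40817 and 27066 in macrophage-like cells. The part of macrophages in the microglia-like class was not tested.

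**Figure D2:**
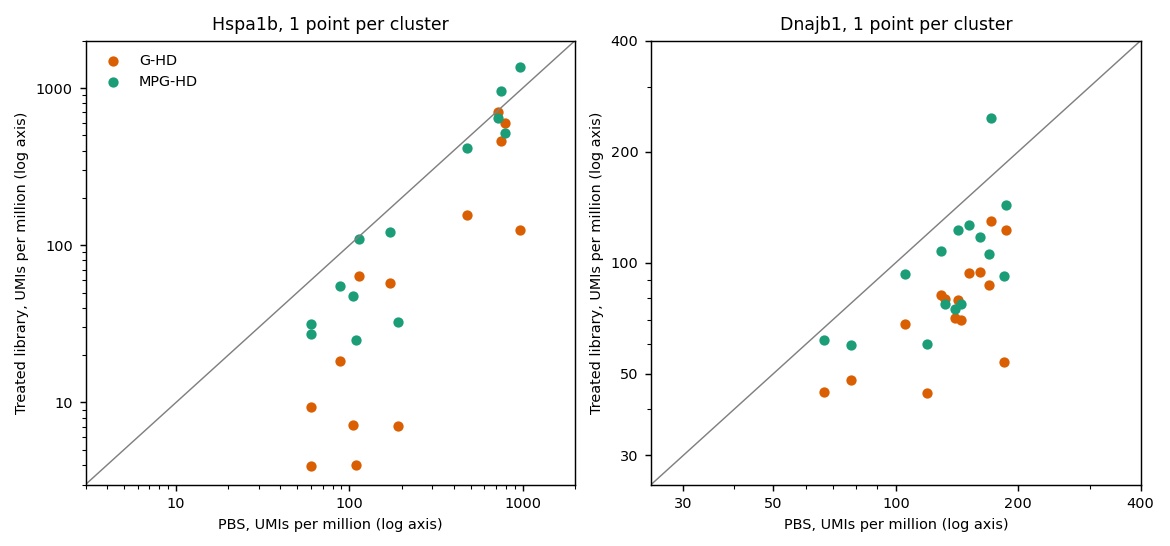
Levels of Hspa1b (left) and Dnajb1 (right) in each cluster, PBS on the x axis and the treated library on the y axis, both in CPM on log axes; the grey line marks equal levels. All 13 G-HD points of Hspa1b and all 15 of Dnajb1 lie below the line, with the spread of Hspa1b much wider. The clusters share their libraries and are not replicates, and no count over all genes was made, so nothing is read from these counts.

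Dnajb1, the inducible HSP40 partner of HSP70, moved with Hspa1b in direction but not in size when the main classes were set against PBS. Between MPG-HD and G-HD the genes parted in Schwann-like cells, with Hspa1b at 2.67 and Dnajb1 at 0.967. In PBS, G-HD and MPG-HD Dnajb1 stood at 121, 60.6 and 73.9 CPM in microglia-like cells, at 70.7, 45.1 and 61.0 in macrophage-like cells and at 142, 86.2 and 122 in oligodendrocyte-like cells. It stood at 178, 101 and 112 CPM in fibroblast-like cells and at 132, 79.6 and 77.0 in Schwann-like cells, and in T-like cells at 169, 86.9 and 106. PBS was the highest library in all 6 classes, and G-HD the lowest in all but Schwann-like cells, where both treated libraries overlapped.

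Against PBS, Dnajb1 in G-HD was lower in 6 of 6 main classes, with class ratios from 0.500 (0.422 to 0.591) in microglia-like to 0.638 (0.554 to 0.736) in macrophage-like cells. Clusters within a class spread wider. The microglia-like clusters had 0.372 (0.291 to 0.471) and, in the cluster led by interferon genes, 0.632 (0.477 to 0.839). The fibroblast-like clusters had 0.657, 0.291 (0.188 to 0.436) and 0.586, and the cluster at 0.291 had Hspa1b at 0.766. The macrophage-like cluster led by Mmp12 was at 0.668 without a call. Dnajb1 was the 1 gene of 3604 that was lower in all 5 main classes other than T-like cells (0.0277%). Since the members were chosen with earlier results of these data known, nothing is read from that share. Fibroblast-like cells, where Hspa1b was at 0.810, had Dnajb1 at 0.571 (0.486 to 0.672). In MPG-HD over PBS all 6 ratios were below 1, from 0.582 to 0.863, and 3 of 6 were called lower (background 4.32%): Schwann-like (0.582), microglia-like (0.610) and fibroblast-like cells (0.629). None of 6 was called between MPG-HD and G-HD, with ratios of 0.967 to 1.41. Oligodendrocyte precursor-like cells had Dnajb1 at 0.505 and 0.535 of PBS, both called. The macrophage-like ratio to PBS in G-HD was 0.672 with a stricter cell filter and then missed the call, as did the oligodendrocyte-like ratio with equal weight per cluster, at 0.804. The microglia-like ratio to PBS in MPG-HD missed it with equal weight per cluster, at 0.676. Thinned to 1000 UMIs per cell, 4 of the 6 G-HD ratios had too few UMIs, and those of macrophage-like and oligodendrocyte-like cells were 0.752 and 0.876 without a call.

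Constitutive and organelle chaperones stood close to PBS in the 5 main classes other than T-like cells. Hspa8, the constitutive HSP70, had 1908, 1846 and 1846 CPM in microglia-like cells and a range of 0.878 to 1.11 of PBS in G-HD over those 5 classes. Hsp90ab1, the constitutive HSP90, ranged from 1.04 to 1.11, and Hspa5 (BiP, the HSP70 of the endoplasmic reticulum) from 0.989 to 1.10. Mitochondrial Hspd1 (HSP60) ranged from 0.886 to 1.22, and its partner Hspe1 (HSP10) from 0.851 to 0.931, below 1 in each. None of these 25 ratios was called, nor any in MPG-HD over PBS or MPG-HD over G-HD. The inducible HSP90 gene Hsp90aa1, at 0.912 to 1.19 of PBS in G-HD, was likewise not called in any of those 5 classes.

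**Figure D3:**
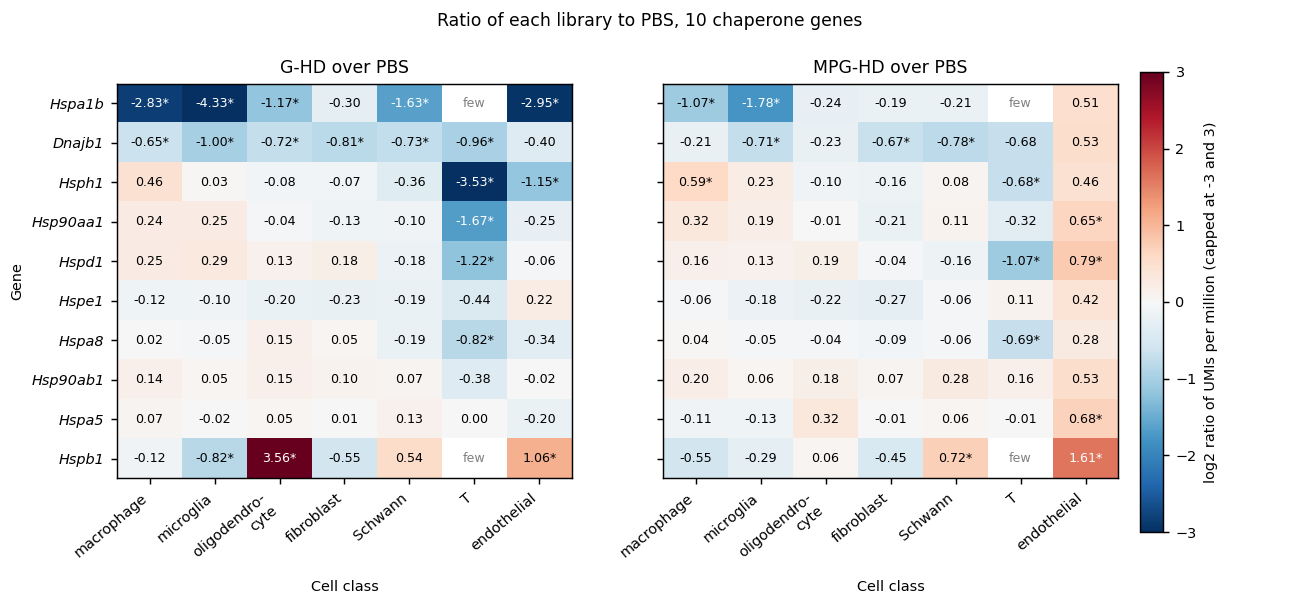
Log2 ratio to PBS of the 10 genes (rows) in 7 cell classes (columns), G-HD on the left and MPG-HD on the right; blue is lower and red higher than PBS, an asterisk marks a call, and "few" marks under 50 UMIs. In G-HD the Hspa1b and Dnajb1 rows lie below PBS wherever the UMIs sufficed, as do 7 of the 8 genes measured in T-like cells (Hspa5 was at 1.00), and Hspb1 in oligodendrocyte-like cells rests on 1 cell.

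Over the other 9 genes, 11 of 53 pairs of gene and main class were lower and 1 higher in G-HD over PBS, where 4.14% of all pairs were lower and 5.68% higher. Dnajb1 gave 6 of those 11 and T-like cells 5, with Dnajb1 in T-like cells counted in both, and Hspb1 in microglia-like cells gave the last. Without T-like cells, 6 of 45 were lower and the median log2 ratio was -0.02. In MPG-HD over PBS, 6 of 53 pairs were lower and 2 higher (4.32% and 2.43% of all pairs), and between MPG-HD and G-HD 1 of 52 was lower and 1 higher (5.14% and 2.06%). All contrasts with PBS share that library.

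In T-like cells several chaperones were lower together. In PBS, G-HD and MPG-HD, Hsph1 (HSP110) had 266, 23.0 and 166 CPM, from 55, 9 and 33 UMIs. It was seen in 59.6% (31 of 52), 6.60% (7 of 106) and 35.2% (19 of 54) of the cells, at like median depths of 3403, 3236 and 3447 UMIs. Its G-HD over PBS ratio of 0.0865 (0.0376 to 0.176) was the lowest of 1413 genes measured in these cells. Hsp90aa1 had 503, 158 and 402 CPM, with a ratio of 0.315 (0.226 to 0.436) in G-HD. Hspd1 had 392, 169 and 186 CPM (0.431, 0.306 to 0.603), and Hspa8 had 3279, 1855 and 2032 (0.566, 0.509 to 0.629). Dnajb1 stood at 0.513. Thus 5 of the 8 members measured in T-like cells were lower in G-HD, where 5.38% of genes were. Hsp90ab1 at 0.771, Hspe1 at 0.738 and Hspa5 at 1.00 were not called.

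Other heat shock genes were lower with them in T-like cells. From a list of inducible co-chaperones, Chordc1 (an HSP90 co-chaperone) stood at 0.146 of PBS in G-HD, Stip1 (which links HSP70 to HSP90) at 0.245, Cacybp at 0.245, Dnaja1 (an HSP40) at 0.267 and Ahsa1 (an activator of HSP90) at 0.443, and these 5 of the 10 measured genes were lower. Together with Hsph1, Hsp90aa1 and Hspd1 they held 8 of the 20 lowest ratios of the class. Dnaja1 was seen in 98.1%, 48.1% and 55.6% of T-like cells. In MPG-HD over PBS, Hspd1 (0.475), Hspa8 (0.620) and Hsph1 (0.624) were lower (5.98% of genes), as were Dnaja1 (0.329), Chordc1 (0.420) and Cacybp (0.458), whereas Hsp90aa1 was not called. Hsp90aa1 was 2.54-fold higher in MPG-HD than in G-HD (1.80 to 3.60).

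The T-like cells carried most of their defining markers in each library. Cd3e was seen in 80.8%, 89.6% and 85.2% of them, Cd3d in 84.6%, 90.6% and 90.7% and Cd8a in 44.2%, 41.5% and 46.3%. Cd3g was seen in 75.0%, 93.4% and 92.6%, and its PBS and G-HD intervals did not overlap. The 7 T cell markers summed to 3888, 4837 and 5377 CPM (0, 0 and 1 of 7 at 0). Markers of other cells moved between the libraries in the same class. Macrophage markers summed to 232, 529 and 352 CPM, with 6, 4 and 7 of 11 at 0. Monocyte markers summed to 1678, 943 and 1162 CPM (2, 3 and 4 of 6 at 0), and oligodendrocyte markers to 1107, 598 and 584 (4, 3 and 4 of 10 at 0). Neutrophil markers summed to 9.67, 46.0 and 1303 CPM (9, 6 and 5 of 10 at 0), and natural killer cell markers to 914, 831 and 1157 (1, 2 and 2 of 6 at 0). The part of these cells in the result was not tested. The immediate early genes Fos (1001, 496 and 523 CPM) and Jun (280, 92.0 and 221) also stood lowest in G-HD in T-like cells. PBS held 52 T-like cells with 206774 UMIs in all, so these ratios rest on small sums.

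**Figure D4:**
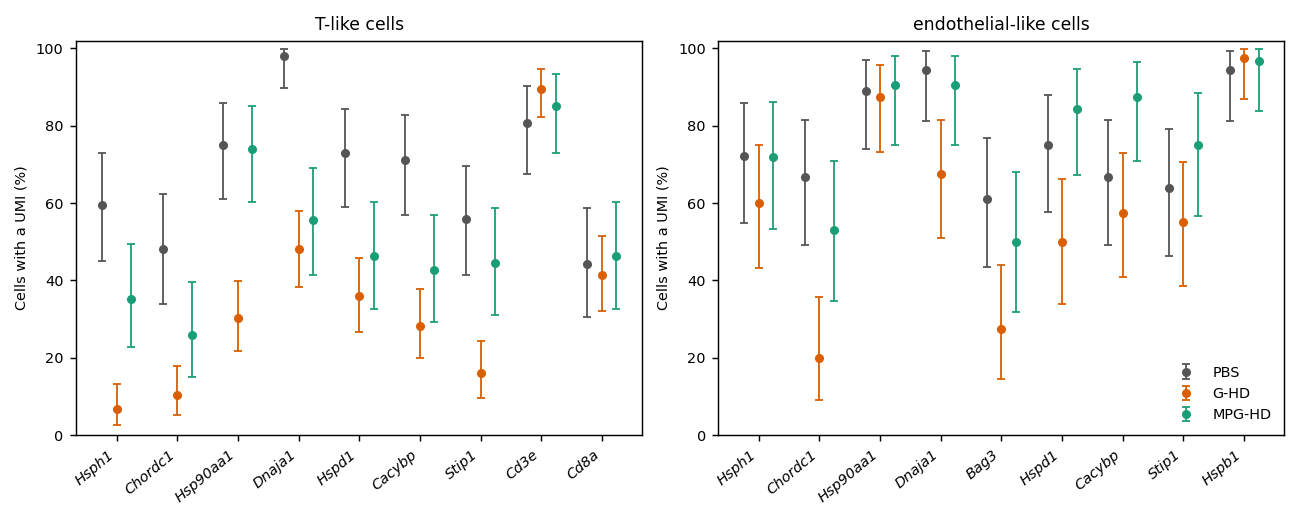
Share of T-like (left) and endothelial-like (right) cells with at least 1 UMI of each gene, in percent, with exact 95% binomial intervals; the columns are PBS, G-HD and MPG-HD. In T-like cells Hsph1 drops from 59.6% to 6.60% in G-HD while the T cell genes Cd3e and Cd8a keep overlapping intervals.

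Endothelial-like cells, with 36, 40 and 32 cells, stood high in Hspa1b in PBS and MPG-HD and far lower in G-HD. Hspa1b had 964, 125 and 1369 CPM and was seen in 91.7%, 45.0% and 84.4% of the cells. Hsph1 had 224, 101 and 309 CPM, and the list genes Chordc1 (131, 21.6 and 121) and Dnaja1 (882, 330 and 953) were also lowest in G-HD. In G-HD over PBS, Hspa1b (0.130, 0.0953 to 0.173) and Hsph1 (0.450, 0.306 to 0.651) were lower (4.85% of genes), as were Chordc1 (0.165), Bag3 (0.325), Dnaja1 (0.374) and Cacybp (0.489), and Dnajb1 was at 0.759 without a call. In MPG-HD over PBS no member was lower, Hspb1, Hspd1, Hspa5 and Hsp90aa1 were higher (1.57-fold to 3.05-fold, background 6.87%), and Hspa1b was at 1.42. Between MPG-HD and G-HD 7 of 10 members were higher (background 6.76%), with Hspa1b at 10.9-fold and Hsph1 at 3.06-fold. Their 7 endothelial markers summed to 6968, 6770 and 8409 CPM with none at 0, while 6 erythroid markers summed to 14823, 9334 and 1402 CPM (2, 1 and 3 at 0); the part of red cell RNA in these ratios was not tested. In MPG-HD 1 cell held 24.2% of the Hspa1b UMIs of the class, in G-HD 23.1% and in PBS 16.8%. For other members the top MPG-HD cell held 26 of 110 Hsph1, 72 of 364 Hsp90aa1 and 147 of 936 Hspa8 UMIs. The top PBS cell held 21 of 101, 57 of 294 and 111 of 976, and the top G-HD cell 6 of 42, 30 of 229 and 65 of 710. Hsph1 was seen in 26 of 36, 24 of 40 and 23 of 32 cells of PBS, G-HD and MPG-HD, with overlapping intervals. The part of single cells in these ratios was not tested.

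Hspb1 (HSP27), a small heat shock protein that holds unfolded clients and is tied to actin, differed from Hspa1b in its changes between libraries. It shared with Hspa1b the classes of highest level in each library. It was highest in endothelial-like cells (1544, 3218 and 4708 CPM in PBS, G-HD and MPG-HD), then in Schwann-like (870, 1265 and 1429) and fibroblast-like cells (591, 404 and 434). Both treated libraries were above PBS in endothelial-like cells (2.08-fold and 3.05-fold) and in oligodendrocyte precursor-like cells (3.49-fold and 2.46-fold, from 19 UMIs in PBS). In Schwann-like cells MPG-HD was higher (1.64-fold, 1.48 to 1.82) and G-HD stood at 1.45 without a call. In microglia-like cells G-HD was lower (0.565, 0.404 to 0.783). The 11.8-fold ratio in oligodendrocyte-like cells came from 1 G-HD cell with 151 of the 164 UMIs. In endothelial-like cells of G-HD, Hspb1 was thus higher and Hspa1b lower.

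Hsph1 was near PBS elsewhere in G-HD, at 0.780 to 1.38 in the 5 other main classes, and higher in macrophage-like cells of MPG-HD (69.6 CPM in PBS, 96.1 in G-HD and 105 in MPG-HD; 1.51-fold, 1.32 to 1.73). That value sat at the edge of the call and was lost with a stricter cell filter. In microglia-like cells Hsph1 had 182, 186 and 213 CPM, while Hspa1b had 108, 5.35 and 31.5.

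The other genes of the pathway were taken from lists, described by counts over the 6 main classes. Of the other inducible cytosolic chaperones and co-chaperones, 23 of 25 were in the features, and 17 of 95 pairs were lower and 3 higher in G-HD over PBS (4.14% and 5.68% of all pairs). In microglia-like cells 5 of 17 were lower (3.13% of genes): Bag3 (a nucleotide exchange factor of HSP70) at 0.376, Chordc1 at 0.399, Dnaja1 at 0.449, Zfand2a at 0.494 and Hspa2 at 0.532, with a list median log2 ratio of -0.20 against 0.01 for all genes. Chordc1 was lower in 4 main classes (microglia-like, fibroblast-like, Schwann-like and T-like). In oligodendrocyte-like cells none of 18 was lower. The autophagy receptor gene Sqstm1, among those with the most UMIs, ranged from 0.758 to 1.30 without a call. In MPG-HD over PBS 11 of 96 were lower and 5 higher (4.32% and 2.43% of all pairs), and between MPG-HD and G-HD 3 were lower and 13 higher (5.14% and 2.06%). Cryab, another small heat shock gene, was 2.32-fold higher than PBS in fibroblast-like cells of MPG-HD and lower in those of G-HD (0.604).

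The remaining lists are set beside all pairs of gene and main class in G-HD over PBS, of which 4.14% were lower and 5.68% higher. Apart from the immediate early genes, their counts were small or near those shares, and nothing is read from them. For endoplasmic reticulum chaperones and unfolded protein response genes 6 of 119 pairs were lower and 4 higher, with Herpud1 lower in macrophage-like, microglia-like and Schwann-like cells and higher in T-like cells (1.66-fold). Calr (0.949 to 1.15) and Ppib (1.00 to 1.14), which had the most UMIs of that list, were not called. No pair of 40 was called among mitochondrial chaperones and proteases, and 1 of 48 was lower in the cytosolic chaperonin; the genes with the most UMIs were Grpel1 (0.958 to 1.31) and Htra2 in the former and Cct5 (0.983 to 1.34) and Cct4 in the latter. Among HSP90 and HSP70 cofactors 2 of 52 were lower, Ptges3 (0.546) and St13 (0.479) in T-like cells, and 3 were higher; the 3 were Fkbp5, a glucocorticoid-responsive immunophilin, at 1.90-fold to 2.55-fold in macrophage-like, microglia-like and oligodendrocyte-like cells. For heat shock factors 1 of 13 was lower, Hsf2 in oligodendrocyte-like cells (0.481), while Hsbp1 ranged from 0.979 to 1.18. Of the immediate early genes, 3 of 84 pairs were lower and 17 higher in G-HD over PBS (4.14% and 5.68% of all pairs). In MPG-HD over PBS 7 were lower and 7 higher of 85 (4.32% and 2.43% of all pairs). In MPG-HD over G-HD 16 were lower and 1 higher of 85 (5.14% and 2.06%). Fos was higher in fibroblast-like cells of G-HD (1.82-fold) and lower in T-like cells (0.495), and Junb was higher in fibroblast-like cells (1.74-fold). The part of cell handling in these differences was not tested.

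Likeness to Hspa1b was measured by Pearson's r over 18 sums (6 main classes in 3 libraries) after the mean of each class was subtracted from log2(CPM + 5); points share libraries and depth, so r is a description. Among 1351 genes the closest were H2aj (0.90), Ppial4d (0.81), Dnajb1 (0.79), Zcchc9 (0.78) and Psma1 (0.76). H2aj had 161, 101 and 117 CPM in microglia-like cells and 132, 132 and 123 in fibroblast-like cells. The co-chaperone Dnaja1 came next at 0.75, and without T-like cells it was at 0.90 and Dnajb1 at 0.78. Of the other members Hspe1 had r = 0.40, Hspa8 0.33, Hsph1 0.18, Hsp90aa1 0.08 and Hspd1 0.07, and Hspb1, Hsp90ab1 and Hspa5 were between -0.15 and -0.05. Without T-like cells Hspe1 had 0.53, Hspa8 0.15, Hsph1 -0.04, Hspb1 -0.10, Hspa5 -0.16, Hsp90ab1 -0.28, Hsp90aa1 -0.39 and Hspd1 -0.60. When class means were not subtracted, r over all 18 sums was highest among the members for Hspb1 (0.79). Hspa5 then had 0.56, Dnajb1 0.48, Hsp90aa1 0.41, Hspd1 0.36, Hsph1 0.34, Hspe1 0.10, Hspa8 0.05 and Hsp90ab1 -0.10. Within cells of 1 class and library, thinned to 1000 UMIs, the r between Hspa1b and another member was under 0.2 in size in 115 of 126 sets with at least 10 Hspa1b-positive cells. The highest were in PBS endothelial-like cells, 0.54 for Hspb1 and 0.50 for Hsph1 (35 cells); counts this sparse keep r low.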

How the data were processed

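Raw UMI counts per gene and barcode, not normalized, are what the authors deposited. Cell Ranger is given as 3.0.2 in the submitters' processing notes and as 3.1.0 in the matrix headers, and the notes list GRCm38 and mm10, mouse builds, although all features carry rat identifiers; the rat build is not given in the sources used here. Depth was 16081082 (PBS), 26289759 (G-HD) and 23988263 (MPG-HD) UMIs in 1513, 2619 and 2339 barcodes.

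Cells passed with 200 or more genes and no more than 20% mitochondrial UMIs. Scrublet (Scanpy 1.11.5) called 12 of 5815 cells (0.206%), so it was taken as not having worked; called cells were removed all the same. Leiden clusters (leidenalg 0.10.2, resolution 0.8) were named from marker lists. Unnamed clusters entered no class. Ratios of class sums carry exact conditional, levels exact Poisson and shares exact Clopper-Pearson 95% intervals (SciPy 1.17.1); the ratio and its interval were tested on simulated data. The members and lists were chosen with earlier results of these data known. Named genes are the members, list genes of most UMIs (1 is not reported here) and the 5 genes most like Hspa1b; list genes named because they were called were chosen after their values were seen. Motif matches in RefSeq promoters used 250 bases before the start. The 11 alternatives are described in the closing section.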

Additional observations from a re-analysis of the deposited data

Results flagged for a closer look

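Among the 10 chaperones, a pair were called in opposite directions in different main classes under the same contrast; the difference between the classes was not tested, since each group has 1 library. Hspb1 in G-HD over PBS was at 0.565 in microglia-like cells and 11.8 in oligodendrocyte-like cells, and 151 of the 164 UMIs behind the second value lay in 1 cell. Hsph1 in MPG-HD over PBS was at 1.51 in macrophage-like cells and 0.624 in T-like cells.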

How the results depend on the processing

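No paired analysis was possible because each group has 1 library. No called ratio of the 10 chaperones in the 6 main classes that kept at least 50 UMIs reversed under any of the 11 alternatives. Ratios with fewer UMIs were left out of that check, except that of Hspa1b in macrophage-like cells. Those left out include Hspb1 in oligodendrocyte-like cells without the top cell, and many ratios after thinning. All 6 classes were found under each alternative. Endothelial-like and oligodendrocyte precursor-like ratios were not recomputed. The Hspa1b ratio in macrophage-like cells, G-HD over PBS, was 0.140 (0.476 for MPG-HD over PBS, 3.40 for MPG-HD over G-HD) and became 0.0897 and 0.337 against PBS with equal weight per cell, 0.0907, 0.605 and 6.67 with chaperone and immediate early genes used for clustering, and 2.57 for MPG-HD over G-HD with the stricter cell filter. Thinned to 1000 UMIs per cell it became 0.0594, 0.664 and 11.2, and fewer sums reached 50 UMIs. Classes with Hspa1b lower then numbered 1 (G-HD over PBS) and 0 (MPG-HD over PBS), classes with it higher in MPG-HD over G-HD 2, pairs of the other members lower than PBS 2 and 2, and pairs higher in MPG-HD over G-HD 0. Pairs higher in G-HD over PBS numbered 2 with equal weight per cluster and with chaperones used for clustering, and 0 without the highest doublet scores. Pairs higher in MPG-HD over PBS numbered 1 with the stricter filter. Between MPG-HD and G-HD, pairs higher numbered 3 with equal weight per cell and 2 with equal weight per cluster or chaperones used for clustering, and pairs lower 0 without the top cell or the highest doublet scores. Other causes were not tested. Below 50 UMIs nothing was called, which among the main classes left 2 of 10 members out in T-like cells in G-HD over PBS.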
